A study of Rattus norvegicus with 6 samples.

Results

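The genes described are the heat shock proteins and cochaperones of cultured rat ventricular cardiomyocytes: the HSP70, HSP90, small heat shock protein and mitochondrial chaperonin genes, Hsph1, the J-domain protein genes Dnaja, Dnajb and Dnajc, and the BAG genes. They were chosen by symbol (Hspa, Hsp90, Dnaja, Dnajb or Dnajc at its start, Hspb or Bag followed by a digit, or Hspd1, Hspe1, Hsph1 or Cryab), which gave 77 of the 23096 genes in the deposited table. Of these, 71 passed the filter on low values (10 or more normalised counts in 3 or more of the 6 libraries) and were tested. Dnajb7, Dnajb8, Dnajc5b, Dnajc5g, Dnajc6 and Hspb9 did not, and the third highest of their libraries was between 0 and 5.81 normalised counts, whereas that of the lowest tested member, Hspa12b, was 33.6. No row of the deposited table carried the symbol Hspa1a or Hspa1b, so these heat-inducible genes were not analysed.

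Heat shock proteins are chaperones that hold, fold or hand over other proteins. HSP70 proteins bind short stretches of unfolded clients in a cycle driven by ATP, J-domain proteins bring the clients and start that cycle, and BAG proteins end it by releasing the nucleotide. HSP90 finishes the folding of kinases and nuclear receptors, small heat shock proteins keep unfolding proteins soluble without ATP, and HSP60 with its lid HSP10 folds proteins in the mitochondrial matrix. In heart muscle, small heat shock proteins and BAG3 are known for guarding desmin, titin and the Z-disc, where repeated contraction unfolds proteins.

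Cardiomyocytes were isolated from ventricles of Wistar rat embryos at E18.5, depleted of fibroblasts by pre-plating, and grown on laminin in medium with serum. They then received 10 µM all-trans retinoic acid (ATRA), a ligand of the retinoic acid receptors, or DMSO alone (vehicle), for 48 h, and poly(A) RNA of 3 libraries per group was sequenced. The cells are a primary culture of prenatal origin, and no label states whether each library had its own cell isolation, so the p-values cover the spread among these samples alone, part or all of which may be technical.

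The libraries held 25434878 to 32052035 gene-assigned reads. Levels between genes are given as FPKM. These values were scaled to transcript length and to the authors' size factor of each library, and not to its total reads. Cardiomyocyte markers were abundant in both groups, with a summed level of 17848 to 22268 FPKM over 9 genes in vehicle and 20916 to 21365 after ATRA. The 10 fibroblast markers summed to 1807, 1386 and 807 FPKM in vehicle replicates 1, 2 and 3 and to 769 to 814 after ATRA, and for 10 of 10 the level in vehicle replicate 3 was under the average of vehicle replicates 1 and 2. In the test described below, 1 of these 10 was called higher after ATRA and 4 were called lower. Of the 9 cardiomyocyte markers, 3 were called higher and 2 lower. The 8 smooth muscle and pericyte markers, which include Acta2 and Tagln, summed to 2081 to 2576 FPKM in vehicle and 4655 to 4846 after ATRA. Of the 7 tested among them, 4 were called higher and 3 lower, so the sum does not describe each marker. Endothelial markers summed to at most 8.18 FPKM and immune markers to at most 4.17 FPKM in any library, and no listed marker was at 0 in every library. The part of these markers in the results on chaperones was not tested. In bulk RNA fewer cells of a type and less RNA per cell cannot be told apart. Vehicle libraries varied more than ATRA libraries for 56 of the 71 tested members, with a median SD of 0.11 against 0.048 on the log2 scale (0.143 and 0.068 over all genes).

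After ATRA, 13 of the 71 tested members were higher, 8 were lower and 50 did not pass the test (limma on log2 normalised counts, with p-values adjusted by Benjamini-Hochberg across the 13110 genes tested and a threshold of 0.05). That is 29.6% of the members, where 39.3% of all genes tested were called, 20.3% higher and 18.9% lower. A called change of at least 1.5-fold was seen for 6 members, while 17.4% of all genes tested had one. The median absolute log2 fold change was 0.15 for the members and 0.23 for all genes, and 46 members lay within 0.2 of zero. Vehicle and ATRA libraries did not overlap for 36 members (50.7%), against 53.8% of all genes tested. Of the 21 called members, Cryab, Hsp90aa1, Dnajb1, Dnajb4, Dnajb9, Dnajb14, Dnaja3, Dnajc9, Hspa13 and Bag3 passed the test in each of the 14 alternative analyses that were run. The plot of fold changes by class shows that most members lie close to zero and that a few stand apart in both directions.

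**Figure D1:**
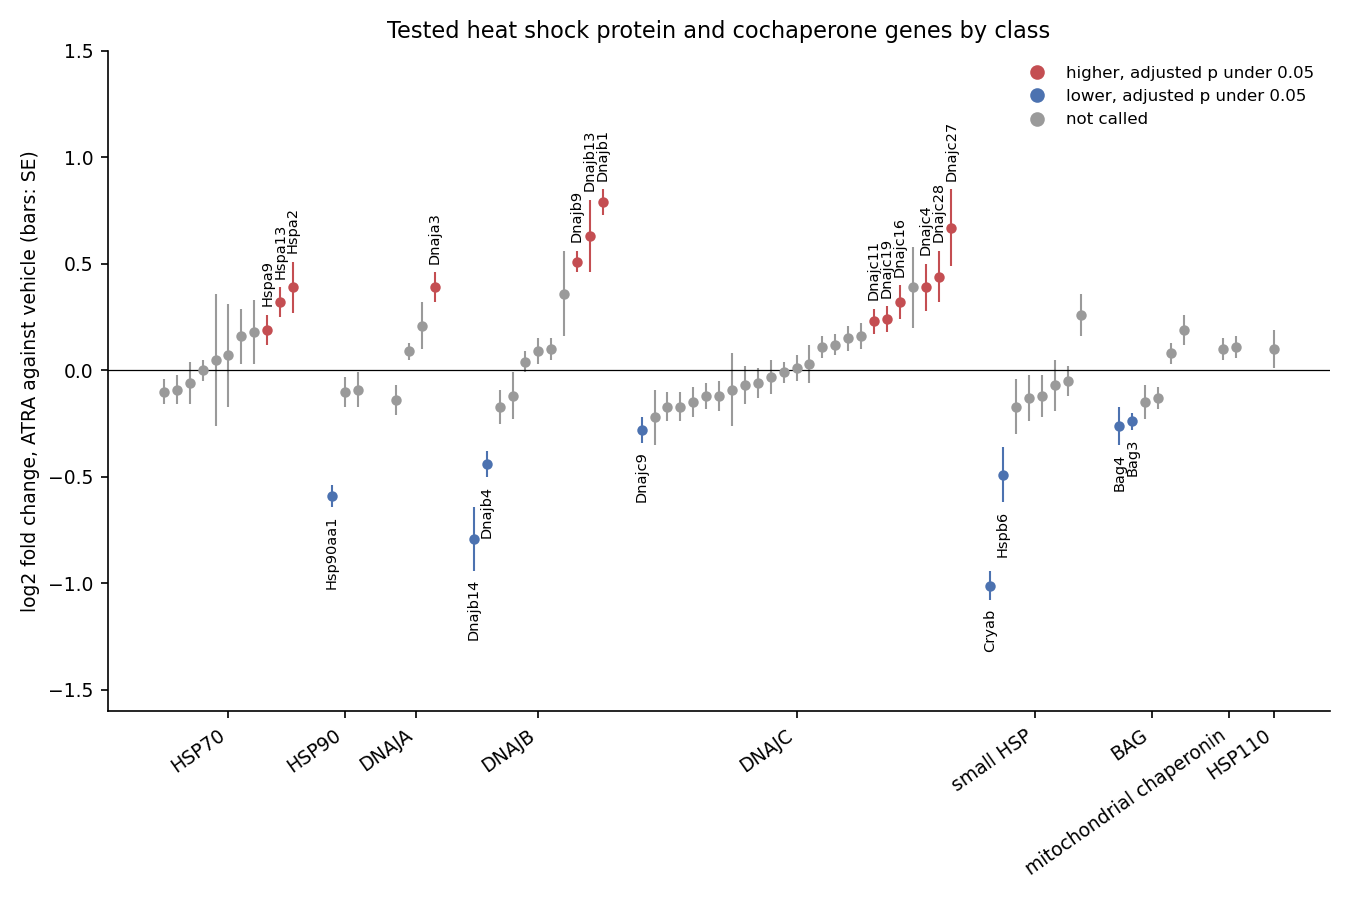
Log2 fold change of each tested member, ATRA against vehicle, grouped by class on the horizontal axis. Points are limma estimates from 3 libraries per group with SE bars, red and blue mark members called higher and lower, and Cryab (-1.01) and Dnajb1 (0.79) are the lowest and highest.

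The balance of higher and lower members depended on how libraries were scaled. Scaling by total reads only (library size alone) put 6 members higher and 19 lower, and moved the median log2 fold change over all genes from 0.004 to -0.104. Higher members were then 24% of the called ones and not 61.9%, and with upper-quartile factors they were 47.8% (11 higher and 12 lower). Without vehicle replicate 3, 17 were higher and 15 lower, and without vehicle replicate 2, 8 were higher. Without ATRA replicate 1, 2 or 3, 6, 6 and 5 were higher. The counts over all 13110 genes tested, 2667 higher and 2483 lower, moved as well. They were 1765 and 3769 with library size alone, and 2211 and 2986 with upper-quartile factors. Without vehicle replicate 3 they were 3404 and 3161, and without vehicle replicate 2, 2151 and 1856. Without ATRA replicate 1, 2 or 3, 1757, 1761 and 1715 of all genes were higher.

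**Figure D2:**
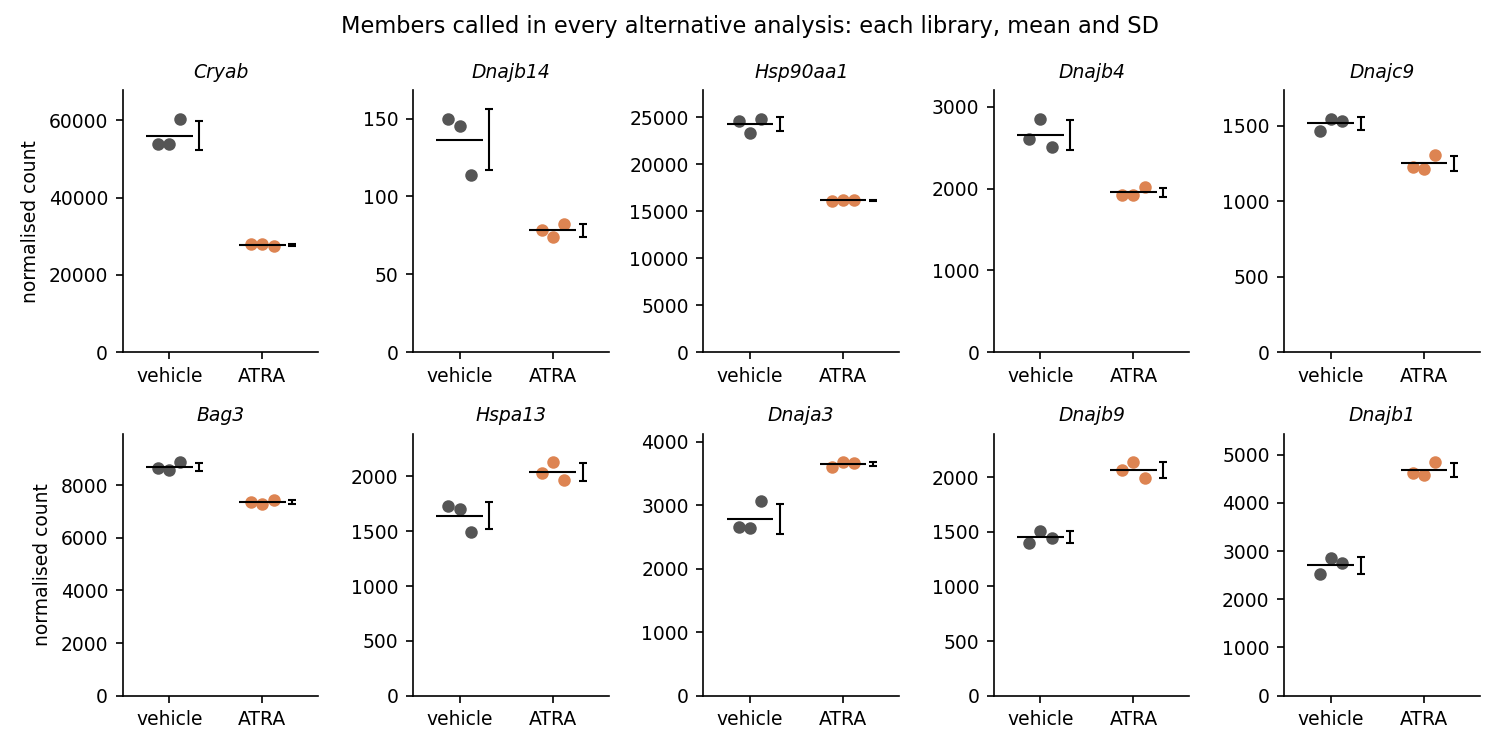
Normalised counts of the 10 members that passed the test in every alternative analysis, with a linear vertical axis from 0 in each panel. Points are single libraries, horizontal lines are means and bars are SD (n = 3); in every panel the vehicle and ATRA libraries do not overlap.

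The largest change among the members was that of a small heat shock protein gene. Cryab (ENSRNOG00000010524) encodes alphaB-crystallin, which binds desmin and titin and was the most abundant member per transcript length in both groups. It had 53815, 53970 and 60502 normalised counts in the vehicle libraries and 27956, 27898 and 27452 in the ATRA libraries. Every ATRA library was below every vehicle library, and the ATRA libraries differed little among themselves. The fall was 2.02-fold, from 56096 ± 3817 to 27769 ± 276 normalised counts (SD, n = 3; log2 fold change -1.01 ± 0.07, SE, limma adjusted p = 4e-05). Vehicle replicate 3 had the highest Cryab count, and without it the log2 fold change was -0.96.

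Hspb6, which encodes HSP20, a small heat shock protein phosphorylated by protein kinase A in heart muscle, fell as well. Its vehicle libraries had 1673, 2220 and 2476 normalised counts and its ATRA libraries 1550, 1446 and 1473. The groups did not overlap, although vehicle replicate 1 was close to the ATRA libraries. The log2 fold change was -0.49 ± 0.13 (1.41-fold lower, limma adjusted p = 0.019), and the call was lost in the absence of vehicle replicate 2 (0.067) and of ATRA replicate 1, 2 or 3 (0.052, 0.069 and 0.067).

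The other tested small heat shock proteins did not pass the test. Hspb1, or HSP27, an actin-binding chaperone, had 12024, 16205 and 16008 normalised counts in vehicle and 14924, 11872 and 12434 after ATRA (-0.17 ± 0.13, adjusted p = 0.34). Its groups overlapped, and without vehicle replicate 1 it was called lower (-0.31, adjusted p = 0.03). Hspb8, or HSP22, the partner of BAG3 in selective autophagy, had 6664, 7207 and 7760 normalised counts in vehicle and 7217, 6536 and 7157 after ATRA (-0.05 ± 0.07, adjusted p = 0.62, and 0.01 without vehicle replicate 3). The muscle-enriched Hspb7, Hspb2 and Hspb3 had log2 fold changes of -0.12 ± 0.1, -0.13 ± 0.11 and 0.26 ± 0.1, and Hspb11, an intraflagellar transport gene despite its name, -0.07 ± 0.12. Hspb7 was among the members called lower without vehicle replicate 1, and Hspb3 was called higher without vehicle replicate 2. In the class as a whole 0 of 8 tested members were higher and 2 lower in limma, edgeR and DESeq2, with a median of -0.12, and at an unadjusted p under 0.05 in limma 3 passed, Hspb3 among them. The class median was -0.01 without vehicle replicate 3 and -0.23 without vehicle replicate 1. In limma 25% of the class was called, against 39.3% of all genes tested. Cryab and its neighbour Hspb2 overlap in the RefSeq annotation of assembly GRCr8, as do Hspd1 and Hspe1, and 37 members in all overlap some other gene there, so without a stated strand setting the separate values of such pairs are uncertain. The FPKM ratio of Cryab to Hspb2 was 36.5, 32.9 and 29.4 in the vehicle libraries and 18.1, 17.5 and 17.9 in the ATRA libraries, without overlap.

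The summed level of the chaperone transcripts was lower after ATRA, and most of that difference lay in Cryab. Summed over all 77 genes, the level was 7156, 7375 and 7637 FPKM in the vehicle libraries and 6268, 6089 and 6167 FPKM in the ATRA libraries. The groups did not overlap, and the ATRA mean was 0.836 times the vehicle mean. Without Cryab the sums were 5239, 5453 and 5482 FPKM in vehicle and 5272, 5095 and 5190 FPKM after ATRA, which overlap (0.962 times). These sums rest on the authors' scaling of libraries. As a share of the summed FPKM of all genes, the members made up 1.72%, 1.75% and 1.83% in vehicle. After ATRA they made up 1.4%, 1.37% and 1.38% (0.782 times). Cryab alone made up 0.478% in vehicle and 0.221% after ATRA (means). By library, Cryab made up 0.46%, 0.456% and 0.517% in vehicle and 0.222%, 0.224% and 0.218% after ATRA. With these taken off, the share of the other members was lower in every ATRA library than in every vehicle library. Cryab made up 26.1% to 28.2% of the summed chaperone FPKM in the vehicle libraries and 15.9% to 16.3% in the ATRA libraries. Within the small heat shock proteins its share went from 59.2% ± 2.47 to 43.8% ± 1.49 (SD, n = 3), and the share of Hspb7 from 15.4% ± 0.7 to 21.2% ± 0.258.

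**Figure D3:**
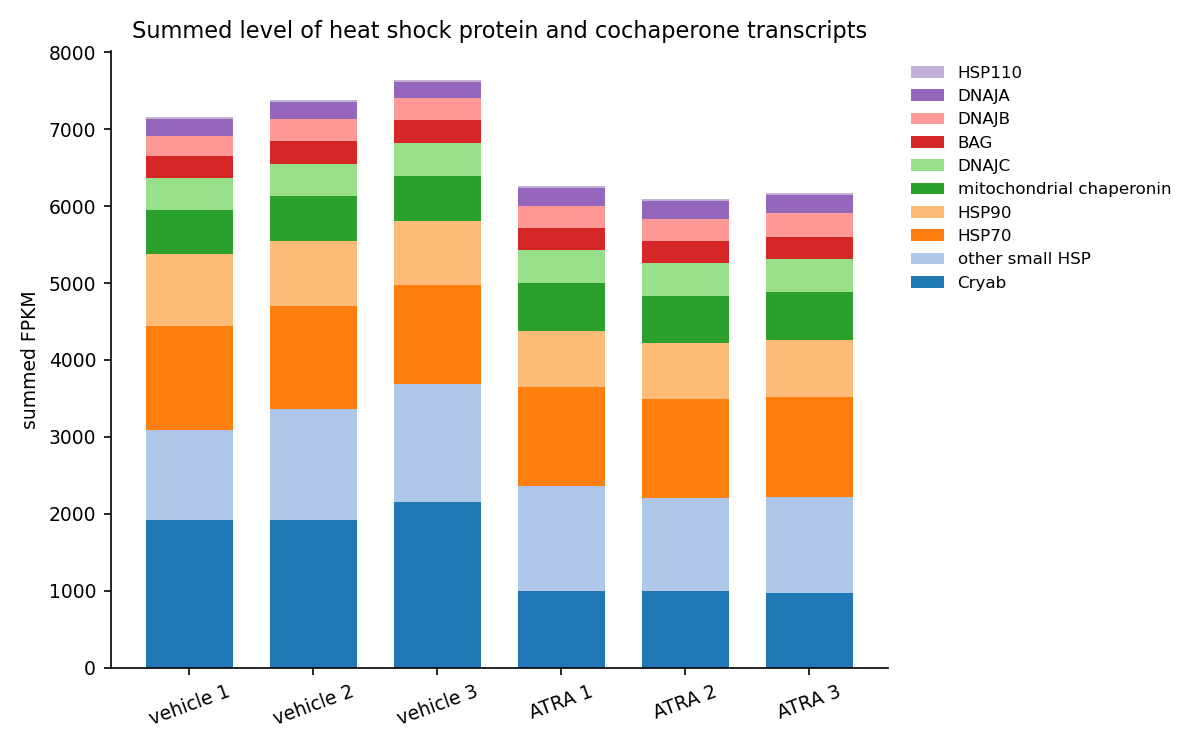
Summed FPKM of the members in each library, stacked by class with Cryab drawn apart from the other small heat shock proteins. The vehicle bars reach 7156 to 7637 FPKM and the ATRA bars 6089 to 6268 FPKM, and the Cryab segment is the one that shrinks most.

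In levels per transcript length, the order of the abundant members was nearly the same in both groups. In vehicle, Cryab (1998 ± 136 FPKM, SD, n = 3) was followed by Hspa8 (612 ± 34.3), Hspb1 (536 ± 85.8), Hspb7 (523 ± 69.1), Hsp90ab1 (382 ± 31.5), Hspa5 (349 ± 13), Hspe1 (329 ± 6.36), Hsp90aa1 (313 ± 10.3), Hspd1 (252 ± 3.53) and Hspa9 (233 ± 16). The neighbours Hspa8, Hspb1 and Hspb7 differed by less than the larger of their SDs, and the other neighbours in this order by more. These 10 genes held 74.5% to 75.4% of the summed member FPKM in vehicle and 69.4% to 69.8% after ATRA. After ATRA Cryab was still first at 989 ± 9.83 FPKM, and Hsp90aa1, at 208 ± 1.03 FPKM, was the 10th member and not the 8th.

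The cytosolic HSP90 genes moved unequally. Hsp90aa1 (ENSRNOG00000059714), the stress-inducible form, had 24573, 23350 and 24838 normalised counts in vehicle and 16036, 16165 and 16181 after ATRA. The groups were far apart, and the ATRA libraries were within 1% of one another. The fall was 1.5-fold (-0.59 ± 0.05, limma adjusted p = 0.00015), from 24254 ± 794 to 16127 ± 79.5 normalised counts (SD, n = 3). Hsp90ab1, the constitutive form, had 30679, 26845 and 26529 normalised counts in vehicle and 25949, 25777 and 26424 after ATRA (-0.1 ± 0.07, adjusted p = 0.29), and the groups were separated only narrowly. The FPKM ratio of Hsp90aa1 to Hsp90ab1, which no library scaling can change, was 0.76, 0.825 and 0.888 in the vehicle libraries and 0.586, 0.595 and 0.581 in the ATRA libraries. Hsp90b1, or GRP94, the HSP90 of the endoplasmic reticulum (ER), had 18476, 16593 and 14629 normalised counts in vehicle and 15170, 15871 and 15470 after ATRA (-0.09 ± 0.08, adjusted p = 0.43). It was called lower without vehicle replicate 3 (-0.18, adjusted p = 0.029). RefSeq lists 16 pseudogenes named after Hsp90aa1, 23 after Hsp90ab1, 33 after Hspa8 and 20 after Hspd1, and the handling of reads that map to several genes is not given in the sources used here, so the separate values of these genes are uncertain.

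Of the 11 tested HSP70 genes, 8 were not called, 3 were higher and 0 lower (27.3% called, against 39.3% of all genes), with a median of 0.07, or -0.04 with library size alone. At an unadjusted p under 0.05 the number was also 3, with edgeR 2 were higher and with DESeq2 3, and 0 were lower with either. The higher count was 1 with library size alone, upper-quartile factors or the replicate block and without vehicle replicate 2 or any one ATRA library, and 2 were lower with library size alone or without vehicle replicate 3. Hspa8, or HSC70, the main constitutive HSP70 of the cytosol, had 45674, 46135 and 41610 normalised counts in vehicle and 41444, 41082 and 42323 after ATRA (-0.09 ± 0.07, adjusted p = 0.3). Vehicle replicate 3 lay among the ATRA libraries, and without it Hspa8 was called lower (-0.14, adjusted p = 0.042), as with library size alone (-0.20, adjusted p = 0.043). Hspa5, or BiP, the HSP70 of the ER lumen, had 27251, 26436 and 25303 normalised counts in vehicle and 24444, 24933 and 24152 after ATRA (-0.1 ± 0.06, adjusted p = 0.18). The groups did not overlap, and Hspa5 was called lower without vehicle replicate 3 (-0.13, adjusted p = 0.044) and with library size alone (-0.21, adjusted p = 0.021).

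The 3 higher HSP70 genes were Hspa9, Hspa13 and Hspa2. Hspa13, an HSP70 relative of the ER, had 1727, 1705 and 1497 normalised counts in vehicle and 2028, 2131 and 1965 after ATRA, a rise of 1.24-fold (0.32 ± 0.07, limma adjusted p = 0.009). Hspa2, best known from testis, had 268, 350 and 364 normalised counts in vehicle and 431, 407 and 435 after ATRA (0.39 ± 0.12, adjusted p = 0.04). It was no longer called when the replicate number was a block (0.053), with upper-quartile factors (0.057) or with library size alone (0.095). The call was also lost without vehicle replicate 2 (0.057) and without ATRA replicate 1, 2 or 3 (0.12, 0.087 and 0.12). Hspa9, or mortalin, the HSP70 of the mitochondrial matrix, had 20931, 21015 and 23571 normalised counts in vehicle and 24667, 24465 and 25697 after ATRA (0.19 ± 0.07, adjusted p = 0.048). Its groups did not overlap, but the call was lost in 10 of 14 alternatives, among them the replicate block (0.082), the absence of vehicle replicate 1 or 2 (0.063 and 0.14) or of ATRA replicate 1, 2 or 3 (0.13, 0.12 and 0.18) and edgeR (0.055). Hspa4, a nucleotide exchange factor of the HSP110 type, had 13669 to 13714 normalised counts in vehicle and 13411 to 13819 after ATRA. Hspa1l, Hspa4l, Hspa12a, Hspa12b and Hspa14 were not called either, with log2 fold changes of -0.06 to 0.18. Hsph1, the heat-inducible HSP110, had 4340, 3590 and 3279 normalised counts in vehicle and 3954, 3964 and 3979 after ATRA (0.1 ± 0.09, adjusted p = 0.45). All 3 ATRA libraries lay between vehicle replicates 1 and 2, and without vehicle replicate 1 Hsph1 was called higher (0.21, adjusted p = 0.016).

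Among the J-domain proteins the DNAJB class had 3 of 11 tested members higher, 2 lower and 6 not called, and 3 of these calls were changes of at least 1.5-fold. That is 45.5% called, against 39.3% of all genes tested, 17.4% of which had a called change of at least 1.5-fold. Dnajb1 (ENSRNOG00000021824), or HSP40, the heat-inducible partner of HSP70 in the cytosol, had 2513, 2845 and 2750 normalised counts in vehicle and 4620, 4578 and 4845 after ATRA. Every ATRA library was far above every vehicle library. The mean went from 2702 ± 171 to 4681 ± 143 normalised counts, a rise of 1.73-fold (SD, n = 3; 0.79 ± 0.06, limma adjusted p = 6.9e-05). Dnajb4, its close cytosolic relative, went the other way, with 2608, 2856 and 2506 normalised counts in vehicle and 1925, 1922 and 2018 after ATRA (-0.44 ± 0.06, adjusted p = 0.0012). The FPKM ratio of Dnajb1 to Dnajb4 was 0.653, 0.675 and 0.744 in the vehicle libraries and 1.63, 1.61 and 1.63 in the ATRA libraries, so that Dnajb4 was the more abundant of the pair in every vehicle library and Dnajb1 in every ATRA library.

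Dnajb9, or ERdj4, an ER J-domain protein that restrains the stress sensor IRE1, had 1402, 1508 and 1442 normalised counts in vehicle and 2066, 2140 and 1997 after ATRA, a rise of 1.43-fold (0.51 ± 0.05, limma adjusted p = 0.00036). Dnajb14, which sits in the ER membrane with its J-domain facing the cytosol, had 150, 145 and 114 normalised counts in vehicle and 78.4, 73.8 and 82.4 after ATRA, a fall of 1.72-fold (-0.79 ± 0.15, adjusted p = 0.0051). Both genes had groups that did not overlap, and the related Dnajb12 was not called (0.09 ± 0.06, adjusted p = 0.29). Dnajb13, a component of the radial spokes of cilia and sperm tails, was low, with 71.6, 68.6 and 95.7 normalised counts in vehicle and 111, 131 and 122 after ATRA (0.63 ± 0.17, adjusted p = 0.019). Its call was lost without vehicle replicate 2 (0.065) or ATRA replicate 2 or 3 (0.081 and 0.071). Dnajb2, Dnajb3, Dnajb5, Dnajb6, which keeps aggregation-prone proteins soluble in muscle, and Dnajb11, the ER cochaperone ERdj3, were not called, with log2 fold changes of -0.17 to 0.36. Without vehicle replicate 1 the lower DNAJB genes were 4 and not 2, with Dnajb2 and Dnajb5 added.

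In the DNAJA class 1 of 4 members was higher (25% called, against 39.3% of all genes tested). Dnaja3, or TID1, the J-domain partner of mortalin in mitochondria, had 2655, 2639 and 3062 normalised counts in vehicle and 3612, 3684 and 3661 after ATRA. The groups did not overlap, and the rise was 1.31-fold (0.39 ± 0.07, limma adjusted p = 0.0027). Dnaja1, a farnesylated cytosolic J-domain protein, had 6572, 6211 and 5559 normalised counts in vehicle and 5507, 5429 and 5662 after ATRA (-0.14 ± 0.07, adjusted p = 0.13). Vehicle replicate 3 was level with the ATRA libraries, and without it Dnaja1 was called lower (-0.21, adjusted p = 0.0056), as with library size alone (-0.25, adjusted p = 0.021). Dnaja2 (0.09 ± 0.04) and Dnaja4 (0.21 ± 0.11) were not called.

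Of 25 tested DNAJC genes, 18 were not called, 6 were higher and 1 was lower (28% called, against 39.3% of all genes tested). Their median was 0.01, or -0.10 with library size alone. That scaling turned the balance to 1 higher and 6 lower, and 3 were lower with upper-quartile factors or without vehicle replicate 3. The lower one was Dnajc9, a chaperone of histones H3 and H4 that also recruits HSP70, with 1466, 1547 and 1532 normalised counts in vehicle and 1229, 1213 and 1307 after ATRA (-0.28 ± 0.06, limma adjusted p = 0.0063). The largest rise was that of Dnajc27, a Rab-like GTPase fused to a J-domain, with 208, 352 and 321 normalised counts in vehicle and 453, 427 and 489 after ATRA (0.67 ± 0.18, adjusted p = 0.023). Both genes had groups that did not overlap. Dnajc28 (0.44 ± 0.12), Dnajc4 (0.39 ± 0.11), Dnajc16 (0.32 ± 0.08), Dnajc19 (0.24 ± 0.06) and Dnajc11 (0.23 ± 0.06) were also higher, by 1.17-fold to 1.36-fold. All 6 rises lost their call in the absence of at least 1 ATRA library, and the number of higher DNAJC genes was 1, 2 and 1 without ATRA replicate 1, 2 or 3 and 3 without vehicle replicate 2. Without ATRA replicate 1, 2 or 3 the adjusted p of Dnajc27 was 0.072, 0.057 and 0.087. With library size alone, Dnajc27 was the only DNAJC gene called higher. The call of Dnajc16 was lost without ATRA replicate 2 or 3 (0.068 and 0.055), that of Dnajc19 without ATRA replicate 1 or 3 (0.052 and 0.054) and that of Dnajc11 without ATRA replicate 1, 2 or 3 (0.08, 0.056 and 0.073) or vehicle replicate 2 (0.067). Dnajc28 lost it without ATRA replicate 1 or 3 (0.1 and 0.097) or vehicle replicate 2 (0.079), and Dnajc4 without ATRA replicate 1 or 2 (0.074 and 0.11) or vehicle replicate 1 or 2 (0.055 and 0.074).

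The uncalled DNAJC genes had log2 fold changes between -0.22, for Dnajc24, and 0.39, for Dnajc22, whose vehicle libraries ranged from 135 to 236 normalised counts. They include Dnajc5, the cysteine string protein of secretory vesicles (-0.01 ± 0.05), Dnajc3 (-0.06 ± 0.07) and Dnajc10 (-0.15 ± 0.07), which are cochaperones of BiP in the ER, and Dnajc2 (-0.12 ± 0.06), which with Hspa14 binds nascent chains at the ribosome. The others were Dnajc1, Dnajc7, Dnajc8, Dnajc12, Dnajc13, Dnajc14, Dnajc15, Dnajc17, Dnajc18, Dnajc21, Dnajc25 and Dnajc30, and each of these was within 0.2 of zero.

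Of the 6 BAG genes, 2 were lower, 4 were not called and 0 were higher in limma, edgeR and DESeq2 (33.3% called in limma, against 39.3% of all genes tested). Their median was -0.14, and at an unadjusted p under 0.05 in limma 4 passed, Bag5 and Bag6 added. Bag3, which links HSP70 and HSPB8 at the Z-disc and feeds damaged filamin to autophagy, had 8643, 8579 and 8879 normalised counts in vehicle and 7361, 7287 and 7442 after ATRA. The replicates were tight and the groups did not overlap, and the fall was 1.18-fold (-0.24 ± 0.04, limma adjusted p = 0.0044). Bag4, a silencer of death receptors, had 612, 606 and 557 normalised counts in vehicle and 456, 480 and 543 after ATRA (-0.26 ± 0.09, adjusted p = 0.045). It was no longer called when the replicate number was a block (0.095) or when no filter was applied (0.052). The call was also lost without vehicle replicate 1 or 2 (0.088 and 0.12) and without ATRA replicate 1 or 2 (0.16 and 0.14). Bag2, which inhibits the ubiquitin ligase CHIP, Bag5 and Bag1 had log2 fold changes of -0.15, -0.13 and 0.08, and Bag6, which triages proteins that miss their membrane, 0.19 ± 0.07 (adjusted p = 0.054). Bag6 was called higher and Bag2 lower without vehicle replicate 3. Of the 5 listed partners of BAG3 in selective autophagy (Stub1, Sqstm1, Synpo2, Map1lc3b and Ywhag) limma, edgeR and DESeq2 called 0, as did limma at an unadjusted p under 0.05, and 1 was called higher without vehicle replicate 2 or 3.

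By compartment, 5 of 9 tested mitochondrial members were higher (Hspa9, Dnaja3, Dnajc11, Dnajc19 and Dnajc28) and 0 lower, with a median log2 fold change of 0.19 where the median of all genes was 0.004. The called share was 55.6%, against 39.3% of all genes tested, 20.3% of which were higher. At an unadjusted p under 0.05 in limma 6 passed, and edgeR called 4 and DESeq2 5. Hspd1, or HSP60, had 16452, 16858 and 16458 normalised counts in vehicle and 17581, 18025 and 18065 after ATRA (0.11 ± 0.05, adjusted p = 0.11). Hspe1, its lid HSP10, had 8372, 8442 and 8685 normalised counts in vehicle and 9214, 8883 and 9163 after ATRA (0.1 ± 0.05, adjusted p = 0.13, and -0.01 with library size alone). Both had groups that did not overlap, and their FPKM ratio was 0.743 to 0.783 in vehicle and 0.748 to 0.796 after ATRA. The count of 5 higher mitochondrial members was 1 with library size alone, 2 without vehicle replicate 2 and 1, 3 and 1 without ATRA replicate 1, 2 or 3. A list of mitochondrial chaperones and proteases outside the symbol rule had 6 of 10 tested genes higher and 0 lower, with a median of 0.26 (7 at an unadjusted p under 0.05, 6 with edgeR and 7 with DESeq2). Its largest rises were those of Htra2, a protease of the intermembrane space (0.98 ± 0.1, adjusted p = 0.0003), and Bcs1l, which inserts the iron-sulfur protein into complex III (0.36 ± 0.06, adjusted p = 0.0028). In that list 60% of the tested genes were called. Its count of 6 higher genes was 3 with library size alone and 3 without any one ATRA library.

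**Figure D4:**
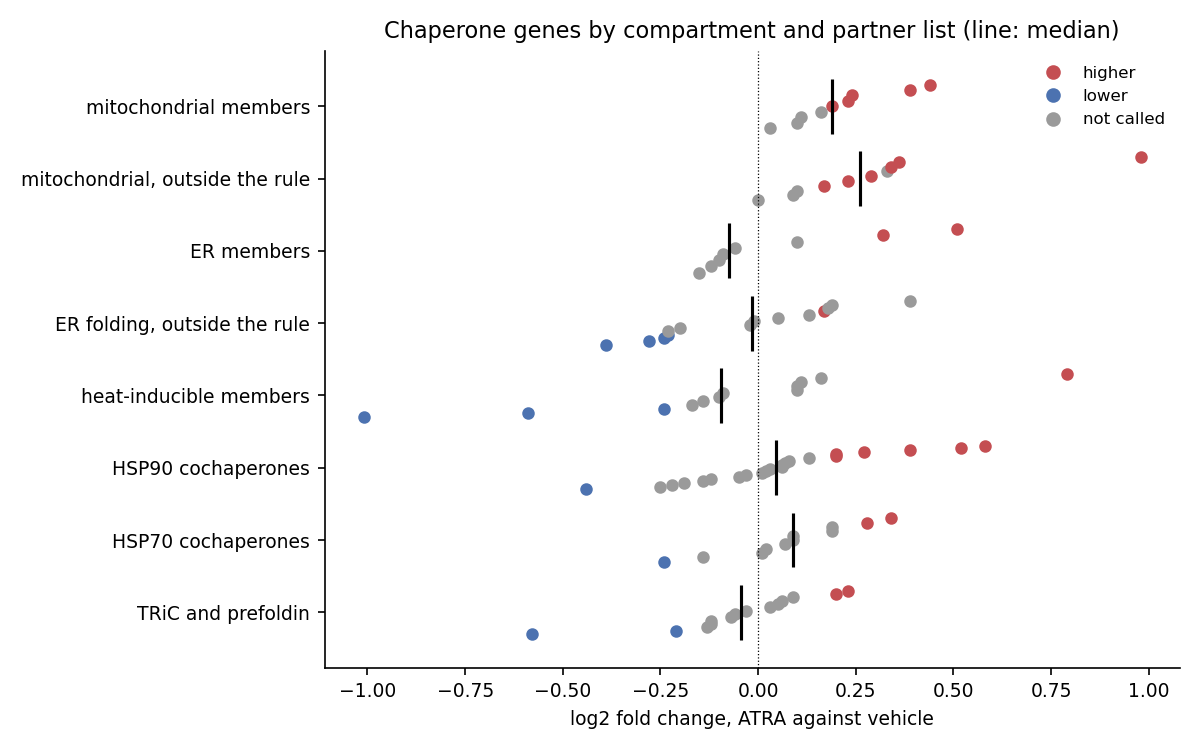
Log2 fold change, ATRA against vehicle, of each tested gene in 8 lists, with the members by compartment or heat inducibility and the partner genes outside the symbol rule. Points are genes, coloured by the limma call, and vertical lines are medians; the 2 mitochondrial lists have medians of 0.19 and 0.26, and the other medians lie between -0.10 and 0.09.

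The ER members did not move together. Of the 8 tested members of the ER list, which leaves out the ER membrane genes Dnajb12 and Dnajb14 (the latter called lower), Dnajb9 and Hspa13 were higher and 0 were lower, with a median of -0.07, and 2 passed also at an unadjusted p under 0.05, with edgeR and with DESeq2, but 4 were lower without vehicle replicate 3 (Hspa5, Hsp90b1, Dnajc1 and Dnajc10) and 3 when libraries were scaled by their totals. In the list of ER folding factors outside the symbol rule, 1 of 14 tested genes was higher and 4 lower, with a median of -0.01. In limma 25% of the ER members and 35.7% of these folding factors were called, against 39.3% of all genes tested. The largest falls were those of Ero1a, an oxidase that supplies disulfide bonds (-0.39 ± 0.07, adjusted p = 0.0033), and Creld2 (-0.28 ± 0.09, adjusted p = 0.033), whose call was lost without vehicle replicate 1 or 2 (0.063 and 0.07) or ATRA replicate 1, 2 or 3 (0.063, 0.11 and 0.11). The rise was that of the lectin chaperone gene Canx (0.17 ± 0.06, adjusted p = 0.049), whose call was lost in 10 of 14 alternatives, among them edgeR (0.05), the replicate block (0.14), and without vehicle replicate 2 or ATRA replicate 1, 2 or 3 (0.091, 0.12, 0.17 and 0.19). Without vehicle replicate 2 or any one ATRA library 1 was lower and 0 were higher, and without vehicle replicate 1, 3 were higher.

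Nor did the members known to be induced by heat. Of 12 tested, Dnajb1 was higher, Cryab, Hsp90aa1 and Bag3 were lower and 8 were not called, with a median of -0.10 (33.3% called, against 39.3% of all genes tested). Without vehicle replicate 3 or with library size alone the lower ones were 5, with Hspa8 and Dnaja1 added. Without vehicle replicate 1 the higher ones were 2, with Hsph1 added, and the lower ones 4, with Hspb1 added. The main heat shock factor gene Hsf1, whose product binds heat shock elements as a trimer, had 801, 795 and 916 normalised counts in vehicle and 871, 878 and 792 after ATRA (0.02 ± 0.08, adjusted p = 0.88). The groups overlapped, and the log2 fold change ranged from -0.02 to 0.08 when 1 library was left out. Hsf2 was not called either (0.06 ± 0.07). Hsbp1, whose product binds the HSF1 trimer, was higher (0.17 ± 0.05, adjusted p = 0.02), and its call was lost without ATRA replicate 1, 2 or 3 (0.071, 0.083 and 0.087). It was also lost with library size alone (0.06, adjusted p = 0.31), upper-quartile factors (0.12, adjusted p = 0.068) and the replicate block (adjusted p = 0.065).

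Promoter windows from RefSeq (build GRCr8, 250 bases before to 50 after the start site) were at hand for 61 of the 77 genes, with 62 windows, but not for Bag4, Cryab, Dnaja2, Dnajb4, Dnajc2, Dnajc5b, Dnajc8, Dnajc11, Dnajc12, Dnajc15, Dnajc22, Dnajc24, Hsp90aa1, Hspa12a, Hspb2 and Hspb11. A heat shock element of 3 units (GAA and TTC in turn, starting with either, with 2 bases between units) was searched on both strands and found in 5 of the 62 windows (8.06%) and in 0.798% of all 33469 windows in the table. The 5 genes were Hspa8, Hspd1, Hspe1, Hsph1 and Dnaja1, and limma, edgeR and DESeq2 called 0 of them, as did limma at an unadjusted p under 0.05, with log2 fold changes from -0.14 to 0.11. The ER stress element (CCAAT, 9 bases of any kind, CCACG) was found in the windows of Hspa5, Hsp90b1 and Dnajc3 (4.84% of member windows, 0.0657% of all), of which 0 were called by any of the 3 tools or at an unadjusted p under 0.05 in limma. Of these genes, Hspa8, Dnaja1, Hspa5 and Hsp90b1 were called lower without vehicle replicate 3, and Hsph1 was called higher without vehicle replicate 1. The retinoic acid direct repeat (AGGTCA, 5 bases of any kind, AGGTCA) was in 0 member windows and in 0.00896% of all. These matches describe letters only.

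The windows below show the exact elements in the windows of members that were not called, with Dnajb1, the member that rose most, for comparison. Capitals mark the heat shock element in Hspa8, Hspe1, Hsph1 and Dnaja1 and the ER stress element in Hspa5, and the Dnajb1 window held none of the 3 motifs in exact form. Shorter and inexact heat shock elements were not searched. The Dnajb1 window does hold pairs of neighbouring units (gaaggttc and gaagcttc), so it cannot be said to lack heat shock elements.
Hspa8 (chr8:50080264-50080563, plus strand): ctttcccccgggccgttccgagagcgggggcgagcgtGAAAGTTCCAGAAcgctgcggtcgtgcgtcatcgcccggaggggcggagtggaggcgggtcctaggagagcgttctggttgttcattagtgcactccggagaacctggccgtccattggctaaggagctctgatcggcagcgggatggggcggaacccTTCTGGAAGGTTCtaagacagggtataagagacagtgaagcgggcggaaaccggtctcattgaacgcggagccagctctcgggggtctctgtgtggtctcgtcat
Hspe1 (chr9:64084077-64084376, plus strand): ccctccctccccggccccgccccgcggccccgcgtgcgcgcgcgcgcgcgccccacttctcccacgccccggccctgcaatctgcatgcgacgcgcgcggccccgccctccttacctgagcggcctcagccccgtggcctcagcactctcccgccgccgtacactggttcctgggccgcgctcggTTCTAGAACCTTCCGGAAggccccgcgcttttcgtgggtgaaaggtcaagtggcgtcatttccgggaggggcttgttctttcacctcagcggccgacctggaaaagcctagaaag
Hsph1 (chr12:10427118-10427417, plus strand): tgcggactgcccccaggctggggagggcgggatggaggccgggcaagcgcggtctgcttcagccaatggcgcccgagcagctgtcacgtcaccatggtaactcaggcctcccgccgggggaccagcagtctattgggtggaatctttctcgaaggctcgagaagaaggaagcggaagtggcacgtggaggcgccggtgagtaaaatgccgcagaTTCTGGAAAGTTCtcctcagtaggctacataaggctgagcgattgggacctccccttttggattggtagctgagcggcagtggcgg
Dnaja1 (chr5:60638154-60638453, plus strand): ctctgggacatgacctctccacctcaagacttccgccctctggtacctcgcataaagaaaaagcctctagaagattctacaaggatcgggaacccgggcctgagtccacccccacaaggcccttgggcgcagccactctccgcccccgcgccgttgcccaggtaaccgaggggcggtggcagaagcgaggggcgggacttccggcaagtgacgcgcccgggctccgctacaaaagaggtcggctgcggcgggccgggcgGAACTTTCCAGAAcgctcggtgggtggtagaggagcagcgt
Hspa5 (chr3:38452766-38453065, plus strand): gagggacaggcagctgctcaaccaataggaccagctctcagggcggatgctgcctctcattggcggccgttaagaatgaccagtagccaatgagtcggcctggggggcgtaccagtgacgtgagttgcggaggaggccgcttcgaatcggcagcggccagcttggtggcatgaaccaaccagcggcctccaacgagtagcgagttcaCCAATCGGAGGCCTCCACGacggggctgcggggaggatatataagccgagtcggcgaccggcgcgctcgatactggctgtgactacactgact
Dnajb1 (chr19:41431092-41431391, minus strand): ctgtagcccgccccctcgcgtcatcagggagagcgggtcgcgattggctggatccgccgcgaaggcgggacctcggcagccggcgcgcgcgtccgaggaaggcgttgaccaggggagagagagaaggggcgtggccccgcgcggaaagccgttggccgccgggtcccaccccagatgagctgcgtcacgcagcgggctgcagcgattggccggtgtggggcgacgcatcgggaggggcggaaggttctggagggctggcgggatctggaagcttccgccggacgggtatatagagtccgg
In Hspa8 the matches lay at -213 to -201 and at -55 to -43 from the start site, in Hsph1 at -36 to -24 and in Dnaja1 at 10 to 22, after the start. Hspd1 and Hspe1 are transcribed away from each other and their windows overlap, so that the match at -65 to -48 from the start of Hspe1 is also the one at -242 to -225 from that of Hspd1.

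Among 22 tested cochaperones of HSP90 outside the symbol rule, 15 were not called, 6 were higher and 1 was lower, and the median was 0.04 (31.8% called, against 39.3% of all genes tested). The largest rises were those of Itgb1bp2, or melusin, a muscle-specific partner of HSP90 (from 3602 to 5337 normalised counts, 0.58 ± 0.1, adjusted p = 0.003), and Unc45b, the striated muscle chaperone that folds the myosin head with HSP90 (from 8876 to 12632 normalised counts, 0.52 ± 0.11, adjusted p = 0.0073). Its general relative Unc45a was the lower one (-0.44 ± 0.1, adjusted p = 0.011). The lower count was 6 with library size alone and 5 without vehicle replicate 3. Of 11 tested HSP70 cochaperones outside the rule, 2 were higher and 1 lower (27.3% called). Sgta, which guides tail-anchored proteins, was higher (0.34 ± 0.04, adjusted p = 0.00086). So was Grpel1, the nucleotide exchange factor of mortalin (0.28 ± 0.07, adjusted p = 0.012, with 0.052 without ATRA replicate 1 and 0.066 with library size alone). Hyou1 was lower (-0.24 ± 0.07, adjusted p = 0.027), a call lost without vehicle replicate 2 or any one ATRA library (0.059 to 0.11). Among 14 tested subunits and helpers of the cytosolic chaperonin TRiC and of prefoldin, which fold actin and tubulin, 2 were higher and 2 lower, with a median of -0.05 (28.6% called). The lower ones were Pfdn4 (-0.58 ± 0.1, adjusted p = 0.0036) and Cct4 (-0.21 ± 0.05, adjusted p = 0.015, and 0.075 without ATRA replicate 2 or 3). The higher ones were Pfdn6 (0.23 ± 0.05, adjusted p = 0.011, and 0.056 without ATRA replicate 1) and Pfdn5 (0.2 ± 0.06, adjusted p = 0.025). Pfdn5 was not called without vehicle replicate 2 or any one ATRA library (0.064 to 0.1), with upper-quartile factors (0.073) or with the replicate block (0.05). With library size alone neither Pfdn6 nor Pfdn5 was called (0.11 and 0.24). Without vehicle replicate 3 the lower TRiC and prefoldin genes were 4, and with library size alone 7.

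In the authors' deposited table, which holds their own comparison of the same libraries, Cryab had a log2 fold change of -1.01 with an adjusted p of 2.9e-43, Hsp90aa1 -0.59 with 2e-22 and Dnajb1 0.79 with 8.5e-23. Its adjusted p-values called 13 of the 71 tested members higher and 7 lower, and 70 of the 71 had the same call there as with limma, the exception being Bag4.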

How the data were processed

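Poly(A) RNA of 3 vehicle and 3 ATRA libraries was sequenced. Per the submitters' processing notes, reads were handled with STAR 2.7.3a, Trim Galore 0.6.4, DESeq2 1.32.0 and HTSeq 0.11.2 on build mRatBN7.2. Which annotation release, strand setting and rule for multiply mapped reads applied is not given in the sources used here. Per the file headers, the deposited table holds a normalised count signal, in which the authors divided reads by a size factor per library, FPKM values by the authors, and the authors' own log2 fold change with its standard error and adjusted p-value. The normalised counts were whole multiples of the smallest value in each library, within 1e-06 for 100% of values, which gave back whole reads; for ATRA replicate 2 the step was 1.011, hard to tell from rounding.

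Groups were compared on log2(normalised count + 1) with limma 3.58.1 (eBayes, variance trend), which understates the change of low genes, over 13110 genes with at least 10 normalised counts in at least 3 libraries. Adjusted p-values are Benjamini-Hochberg values from this limma test unless another tool is named, and errors of fold changes are SE with n = 3 libraries per group. FPKM, which held the same ratio to the normalised count of a gene in both groups, served for levels between genes and for sums over genes. The test was also run on simulated counts with the same dispersion for every gene and both groups. That check therefore does not cover the unequal spread of these libraries. Libraries of a group differed beyond sampling noise in every pair. The chi-square for each degree of freedom was 23.79 to 49.88 for vehicle pairs and 2.61 to 3.46 for ATRA pairs. Recovered reads were tested with edgeR 4.0.16 and DESeq2 1.42.0 as alternatives. The members, classes and lists were chosen with earlier results of these data known, so lists are described by counts and medians without a test. Genes named in full were a fixed set of main chaperones, the 3 largest called changes per class and direction and the 2 largest per partner list, and other called members were added after their values were seen. The counts of the list of heat shock factors and their regulators are not reported here.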

Additional observations from a re-analysis of the deposited data

How the results depend on the processing

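Of the 21 called members, 10 passed the test in each of 14 alternatives, and the other 11 kept their direction in all of them. Pseudocount 5, the stricter minimum of 50 and DESeq2 gave the same 13 higher and 8 lower members, and edgeR with TMM factors 12 and 8. Scaling by total reads gave 6 higher and 19 lower. Leaving out 1 library gave 5 to 17 higher and 6 to 15 lower members. Over all genes tested the same omissions gave 1715 to 3404 higher and 1645 to 3161 lower. With the replicate number as a block, 11 members were higher and 7 lower, and Bag4, Hspa2 and Hspa9 lost their call. Same-numbered libraries did not deviate together (correlations of 0, -0.103 and -0.013). ATRA libraries differed little among themselves, so a shared isolation could hardly show in these correlations. Whether the numbers pair the libraries is therefore unknown.

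With library size alone the class medians were -0.04 for HSP70, 0.04 for DNAJA, -0.02 for DNAJB, -0.10 for DNAJC, -0.25 for BAG and -0.01 for the mitochondrial chaperonin genes. With upper-quartile factors they were 0.04 for DNAJB, -0.04 for DNAJC, -0.19 for BAG and 0.05 for the chaperonin genes, and the stricter filter gave 0.16 for HSP70. Leaving out 1 library gave 0.00 to 0.16 for HSP70, 0.04 to 0.12 for DNAJB, -0.01 to 0.06 for DNAJC, -0.16 to -0.11 for BAG, -0.23 to -0.01 for the small heat shock proteins, -0.18 to -0.03 for HSP90 and 0.01 to 0.21 for HSP110 (Hsph1). Among the genes named by rule or called, whose fold changes were followed singly, those that crossed zero were not called and were Hsf1 (-0.09 with library size alone, -0.03 with upper-quartile factors, and -0.02 to 0.08 with 1 library left out), Hspb8 (0.01 without vehicle replicate 3; -0.10 to 0.01 over all single omissions), and Hspe1 and Hsph1 (-0.01 each with library size alone). The cause of these shifts was not tested beyond the median of all genes, which library size alone moved to -0.104. Of 532 class and list counts under alternatives, 103 moved by more than 1.5 times or went between 0 and a positive count. Summing Hspa1a and Hspa1b was planned and not run. At these depths 3 reads correspond to 0.0936 to 0.118 CPM, which limits Dnajc6, Hspb9 and the other untested members.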
